A study of Homo sapiens with 6 samples.

Results

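The BCL2 family decides whether a cell commits to death through its mitochondria, and 10 of its genes were followed here in a colorectal cancer cell line with acquired drug resistance. These genes are BCL2, BCL2L1, MCL1, BCL2L11, BAK1, BID, BAD, PMAIP1, BIK and BMF. They were taken by gene symbol from tables of 19942 symbols, and all 10 were found. The 6 libraries come from HCT116, an established human colorectal carcinoma line. Cells resistant to 5-fluorouracil (5-FU), a thymidylate synthase inhibitor, and parental cells, labelled wild-type, were each given EHMT2 siRNA, given control siRNA, or left untransfected. EHMT2 encodes the histone H3K9 methyltransferase G9a. Each of the 6 groups holds 1 library, so a difference between a pair of libraries has no replicate check and no p-value. The labels say neither whether the resistant cells are a clone nor how resistance was selected.

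Anti-apoptotic members (BCL2, BCL2L1, whose main product is BCL-XL, and MCL1) sit on the outer mitochondrial membrane and hold their pro-apoptotic relatives in a groove on their surface. The effector BAK1 forms pores in that membrane, through which cytochrome c escapes and sets off caspases. BH3-only members (PMAIP1, also called NOXA, BCL2L11, also called BIM, BID, BAD, BIK and BMF) signal stress by placing a short helix, the BH3 domain, into that groove. In colorectal cancer cells this balance is known to shape the response to drugs that damage DNA or deprive cells of thymidylate.

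The feature that unites the family is the BH3 core, a leucine followed after 3 residues by a small residue and an aspartate. The coding bases of this stretch are shown for all 10 members because all carry it, and BH3-only members bind their relatives through it. Each line gives 45 bases of the coding strand from GENCODE 29 transcripts on build GRCh38, 5′ to 3′, with the codons of the core in capitals.
BCL2: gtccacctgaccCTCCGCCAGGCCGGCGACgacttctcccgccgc
BCL2L1: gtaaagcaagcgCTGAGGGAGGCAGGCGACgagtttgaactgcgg
MCL1: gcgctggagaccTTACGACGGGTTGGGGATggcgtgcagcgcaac
BAK1: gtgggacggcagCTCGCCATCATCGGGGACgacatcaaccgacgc
PMAIP1: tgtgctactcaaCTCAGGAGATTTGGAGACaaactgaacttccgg
BCL2L11: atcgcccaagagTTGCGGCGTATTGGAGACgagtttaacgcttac
BID: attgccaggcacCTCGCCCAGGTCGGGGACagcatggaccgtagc
BAD: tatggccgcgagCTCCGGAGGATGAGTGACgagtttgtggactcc
BIK: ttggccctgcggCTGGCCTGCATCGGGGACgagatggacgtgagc
BMF: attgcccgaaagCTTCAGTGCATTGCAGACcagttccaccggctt
The fifth codon of the core encoded glycine in 8 members, serine in BAD and alanine in BMF. PMAIP1 is the shortest of these coding sequences, with 54 codons, and MCL1 the longest, with 350. BID had 2 matches to the searched pattern, and the one with glycine is shown.

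The libraries were checked once as a whole. EHMT2 had an FPKM (fragments scaled to transcript length and library size, the deposited unit) of 3.80 with EHMT2 siRNA and 19.5 with control siRNA in resistant cells, and 8.58 with EHMT2 siRNA and 31.7 with control siRNA in parental cells. Untransfected cells had 27.3 FPKM of EHMT2 (resistant) and 19.8 FPKM (parental). Of 10 colorectal epithelial markers, 6 were at 1 FPKM or more in some library, with a summed level of 1643 to 2563 FPKM. CDX1, VIL1 and LGALS4 were at 0 in all 6 libraries and KRT20 did not exceed 1.00 FPKM. All 3 endothelial markers were at 0, and 3 of 4 fibroblast and 3 of 4 leukocyte markers were at 0 in every library. The fibroblast list rested on COL1A1, at 3.35 to 4.92 FPKM in resistant and 4.51 to 9.79 in parental cells. The leukocyte list rested on CD68, at 1.47 to 4.99 FPKM in resistant and 0.372 to 1.28 in parental cells, and the part of either in the results was not tested. Library totals ran from 360695 to 446143 FPKM. The number of reads behind the values is unknown, so no counting error is given.

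Among the 10 members, BCL2L1, PMAIP1 and MCL1 carried most of the message. Together they made up 74.0 to 83.3% of the family's summed FPKM in each library. BCL2L1 was the highest member in every library, and PMAIP1 was second in all 3 resistant libraries, while MCL1 was second in the 3 parental ones. FPKM are values per length of transcript, so these levels can be set side by side between genes. In bulk RNA fewer cells with a message and less message per cell cannot be told apart. The next 5 members lay much lower, between 14.6 and 20.0 FPKM for BAD, 11.5 and 17.4 for BID, 7.36 and 10.6 for BIK, 5.74 and 10.1 for BAK1, and 4.38 and 6.49 for BCL2L11. BCL2 and BMF stayed under 1 FPKM in all 6 libraries, and BCL2 was listed at 0 in 3 of them. BCL2 had 0.717 FPKM in untransfected resistant cells, 0.469 in parental cells with control siRNA and 0.289 in untransfected parental cells. Those 2 genes did not pass the filter for the model tests (1 FPKM in at least 3 libraries), whereas the other 8 did.

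**Figure D1:**
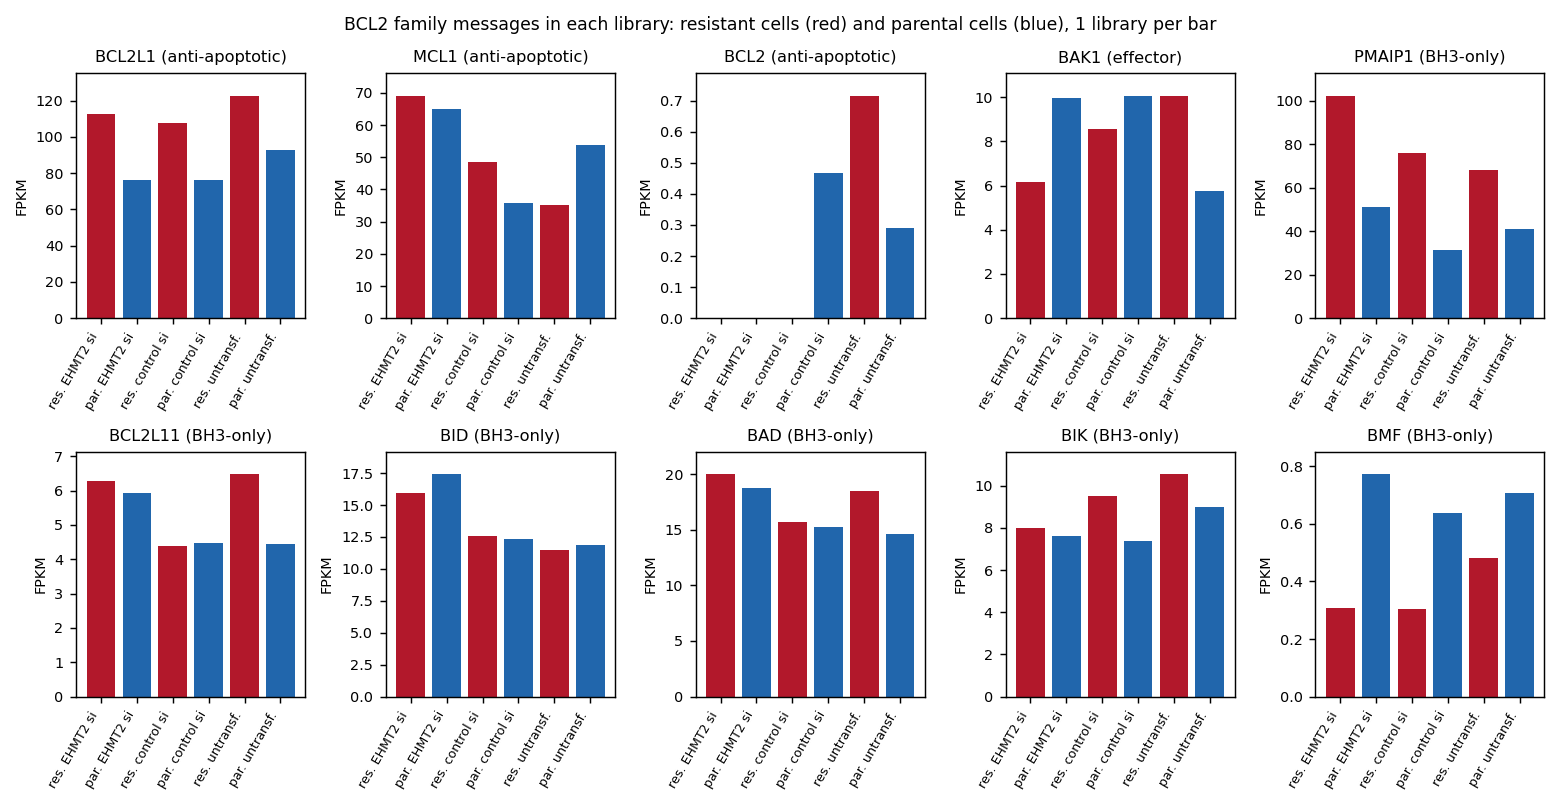
FPKM of each of the 10 members (vertical axes, each with its own range, starting at 0) in the 6 libraries (horizontal axes, 1 bar per library), with resistant cells in red and parental cells in blue. PMAIP1 and BCL2L1 bars are higher in all 3 resistant libraries than in any parental one, while BCL2 and BMF stay below 1 FPKM.

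The first question is how resistant cells differ from parental cells, with the 3 line pairs read under EHMT2 siRNA, under control siRNA and untransfected. PMAIP1 and BCL2L1, a death signal and a survival protein, were both higher in all 3 resistant libraries than in any parental library. Across all tested genes, 2.89% had such a gap with resistant cells higher and 2.58% with resistant cells lower. Ratios below are log2 ratios of FPKM with 1 added, resistant over parental. Their median over the 10 members was 0.06 with EHMT2 siRNA, 0.03 with control siRNA and 0.36 untransfected, against −0.05, −0.02 and 0.07 over all genes at 1 FPKM or more in the pair. Over the 8 members at that level the medians were 0.08, 0.18 and 0.36.

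PMAIP1 (ENSG00000141682, GRCh38 chromosome 18, 59899948 to 59904306, plus strand) makes a BH3-only protein that binds MCL1 with preference. In resistant cells it had 102 FPKM with EHMT2 siRNA, 76.0 with control siRNA and 68.1 untransfected. In parental cells it had 51.1 FPKM with EHMT2 siRNA, 31.6 with control siRNA and 40.9 untransfected. The lowest resistant value thus lay above the highest parental one, and the 3.24-fold span over the 6 libraries was the widest among the 8 members at 1 FPKM or more. The ratio was 0.99 with EHMT2 siRNA, 1.24 with control siRNA and 0.72 untransfected. These ratios stood above those of 98.4%, 99.2% and 92.1% of the genes in their pairs. PMAIP1 with control siRNA was the only member that was 2-fold apart in any line pair, where 1.6% of genes were at least 2-fold higher and 0.96% at least 2-fold lower. In the untransfected pair 3.48% of genes were at least 2-fold higher and 3.92% lower, and in the EHMT2 siRNA pair 1.54% and 1.55%. In the EHMT2 siRNA pair PMAIP1 passed 2-fold when ratios were centred on the median gene (1.04) or when 0.1 was added in place of 1 (1.00).

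In the additive limma model over all 6 libraries, with line and treatment as terms, the line estimate for PMAIP1 was 0.98 (SE 0.16, adjusted p = 0.465, Benjamini-Hochberg over 11521 genes). That fit called 0 genes for the line, so the background was 0.0%, with 603 genes at an unadjusted p under 0.05, among them PMAIP1 and BCL2L1. Fitted to the 4 siRNA libraries alone, PMAIP1 rose by 1.12 (SE 0.12, adjusted p = 0.00871, limma). Over 17 alternative fits its estimate ran from 0.85 to 1.13 and its adjusted p from 2.88e-05 to 1.00. It was called in 7 of them, each of which left out at least 1 untransfected library. With 1 untransfected library left out, the other is fitted exactly by its own treatment term. All 7 calls thus rest on the 4 siRNA libraries, with 1 residual degree of freedom, and are not separate checks. All these p-values take the interaction of line and treatment as error and measure only the spread among these libraries.

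BCL2L1 (ENSG00000171552, chromosome 20, 31664452 to 31723989, minus strand) encodes BCL-XL, which restrains BAK1 and binds many BH3-only proteins. It had 112 FPKM with EHMT2 siRNA, 108 with control siRNA and 123 untransfected in resistant cells. Parental cells had 76.1 FPKM with EHMT2 siRNA, 76.3 with control siRNA and 92.7 untransfected. The line groups did not overlap, and the ratios were 0.56 with EHMT2 siRNA, 0.49 with control siRNA and 0.40 untransfected. The 6-library limma estimate was 0.48 (SE 0.15, adjusted p = 0.870). The gene rose by 0.52 in the 4-library fit (SE 0.11, adjusted p = 0.0372, limma), and its adjusted p ran from 0.0276 to 1.00 over 17 alternatives. The 4-library fit called 4.49% of genes as higher and 4.47% as lower in resistant cells, against 2 and 0 of the 8 members tested. In the annotation 43.0% of the exonic bases of BCL2L1 are shared with ABALON, a non-coding gene, and the strand setting of the counting is not given, so reads of both may be mixed in this level.

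MCL1 and BAK1 did not keep a direction between the lines. MCL1 (chromosome 1, 150574551 to 150579738, minus strand) encodes a short-lived survival protein. It had 69.2 FPKM with EHMT2 siRNA, 48.6 with control siRNA and 35.2 untransfected in resistant cells, against 64.9, 35.9 and 53.7 FPKM under the same treatments in parental cells. Its ratios were 0.09 with EHMT2 siRNA, 0.42 with control siRNA and −0.60 untransfected. BAK1 (chromosome 6, 33572547 to 33580293, minus strand) had 6.15 FPKM with EHMT2 siRNA, 8.55 with control siRNA and 10.1 untransfected in resistant cells. In parental cells it had 9.94, 10.1 and 5.74 FPKM under the same treatments. Its ratios of −0.62, −0.21 and 0.72 thus changed sign between the siRNA pairs and the untransfected pair. Neither gene passed the limma threshold for the line in the 6-library or the 4-library fit.

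BAD, BIK and BMF had the same sign in all 3 line pairs, and so did 14.0% (higher) and 12.5% (lower) of all tested genes. BAD, which ties growth factor signals to BCL-XL, had ratios of 0.09, 0.04 and 0.32 with EHMT2 siRNA, with control siRNA and untransfected. BIK, a BH3-only protein of the endoplasmic reticulum, had ratios of 0.06, 0.33 and 0.21. BMF, which is held at the cytoskeleton, was at 0.309, 0.304 and 0.482 FPKM in resistant cells and at 0.774, 0.637 and 0.707 FPKM in parental cells under those treatments. BMF was thus lower in all 3 resistant libraries than in any parental one, at values all under 1 FPKM and outside the model tests. At 1.5-fold, BAK1 and PMAIP1 were higher and MCL1 lower in resistant cells untransfected (11.8% of genes higher, 10% lower). With EHMT2 siRNA PMAIP1 was higher and BAK1 lower (5.99% of genes higher, 9.5% lower), and with control siRNA PMAIP1 alone was higher (6.49% higher, 5.52% lower). BCL2L11 and BID each had ratios on both sides of 0, with BCL2L11 at 0.46 in the untransfected pair and between −0.03 and 0.07 in the siRNA pairs.

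**Figure D2:**
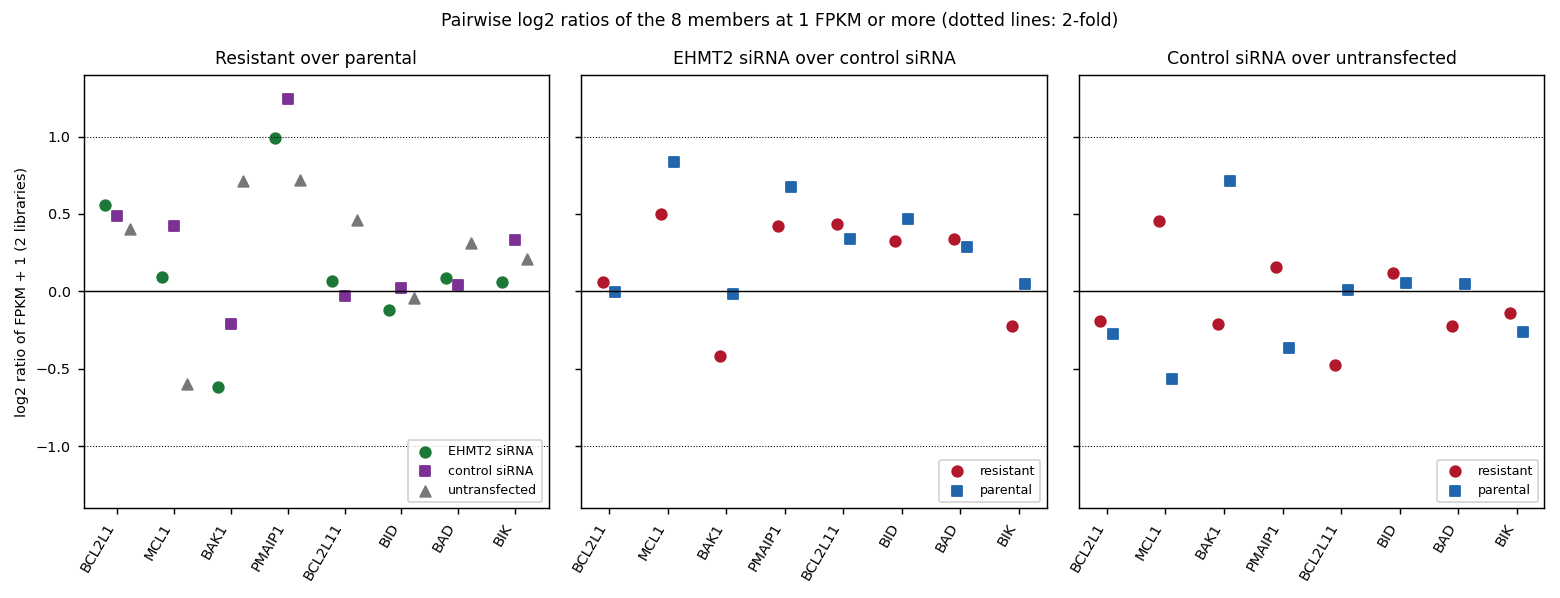
Log2 ratios of FPKM + 1 (vertical axis) for the 8 members at 1 FPKM or more (horizontal axis), with each point the ratio of 2 libraries, in panels for line, EHMT2 siRNA and control siRNA. PMAIP1 and BCL2L1 lie above 0 in all 3 line pairs, MCL1 and BAK1 lie on both sides, and MCL1, PMAIP1, BCL2L11, BID and BAD lie above 0 with EHMT2 siRNA in both lines.

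The second question is what EHMT2 siRNA does to the family. Of the 10 members, 5 were higher with EHMT2 siRNA than with control siRNA in both lines under every scaling tried, namely MCL1, PMAIP1, BCL2L11, BID and BAD. They include a survival protein and 4 BH3-only death signals. Higher values in both lines were common. In the values as deposited, 45.2% of all tested genes were higher in both lines and 36.7% lower, against 6 members higher, BMF among them, and BAK1 lower. The share of genes higher was 51.2% after rescaling to the same sum, 39.5% with median centring and 40.6% with quantile normalisation. The share higher under every scaling was not computed. No member was 2-fold apart in either line, where 5.22% of genes were at least 2-fold higher and 4.04% at least 2-fold lower in resistant cells, and 7.48% and 3.51% in parental cells. The median ratio of the 10 members was 0.19 in resistant and 0.20 in parental cells, against 0.06 and 0.09 over all genes at 1 FPKM or more in the pair. Over the 8 members at that level it was 0.33 in resistant and 0.31 in parental cells. At 1.5-fold, 0 members were apart in resistant cells (16.2% of genes higher, 13.4% lower) and MCL1 and PMAIP1 were higher in parental cells (20.2% of genes higher, 12.8% lower).

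MCL1 had the highest mean ratio of the family, 0.50 in resistant and 0.84 in parental cells. Its 2 EHMT2 siRNA libraries, at 69.2 FPKM in resistant and 64.9 in parental cells, lay above the other 4 libraries, whose highest value was 53.7. PMAIP1 had ratios of 0.42 in resistant and 0.68 in parental cells. Its level stayed ordered by line first, because resistant cells with control siRNA (76.0 FPKM) were above parental cells with EHMT2 siRNA (51.1 FPKM). In the 4-library limma fit MCL1 rose by 0.67 (SE 0.13, adjusted p = 0.00729) and PMAIP1 by 0.55 (SE 0.12, adjusted p = 0.0115). The same estimates had SEs of 0.28 and 0.20 and adjusted p of 0.199 and 0.162 in the limma fit over all 6 libraries. Over 17 alternatives the adjusted p ran from 0.000805 to 0.770 for MCL1 and from 0.00354 to 0.725 for PMAIP1. The sizes leaned on the control siRNA libraries. Left out of the 6-library fit, the parental one gave 0.33 for MCL1 and 0.36 for PMAIP1, and the resistant one 1.01 and 0.74.

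BID (chromosome 22, 17734138 to 17774770, minus strand) links death receptors to mitochondria, as CASP8 cleaves it into its active form. It had 16.0 FPKM with EHMT2 siRNA and 12.5 with control siRNA in resistant cells, and 17.4 and 12.3 FPKM in that order in parental cells. Untransfected cells had 11.5 FPKM (resistant) and 11.9 FPKM (parental), so both EHMT2 siRNA libraries were above the other 4. BID rose by 0.40 in the 4-library fit (SE 0.12, adjusted p = 0.0395, limma), and its adjusted p was 0.213 in the 6-library fit and ran from 0.0216 to 0.789 over 17 alternatives. BAD (chromosome 11, 64269830 to 64284704, minus strand) had 20.0 FPKM with EHMT2 siRNA and 15.7 with control siRNA in resistant cells, and 18.8 and 15.2 FPKM in parental cells. The untransfected resistant library, at 18.5 FPKM, was close to these EHMT2 siRNA values. BCL2L11 (chromosome 2, 111119378 to 111168447, plus strand), which can engage every anti-apoptotic member, had 6.28 FPKM with EHMT2 siRNA and 4.38 with control siRNA in resistant cells, and 5.94 and 4.48 FPKM in parental cells. Its highest value of all, 6.49 FPKM, was in untransfected resistant cells. BAD and BCL2L11 did not pass in the 4-library fit (adjusted p = 0.0699 and 0.0643, limma), and passed there only after rescaling to 1 common library sum (adjusted p = 0.0330 and 0.0400, limma). Of the exonic bases of BAD, 23.7% are shared with GPR137, and 10.9% of those of BCL2L11 with MIR4435-2HG.

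In all, 3 of the 8 tested members rose and 0 fell in the 4-library fit, where 23.8% of all tested genes rose and 18.7% fell. In the 6-library fit 0 members and 0 of 11521 genes (0.0%) passed, with 1 member, PMAIP1, and 3060 genes at an unadjusted p under 0.05 (limma). EHMT2, the siRNA target, did not pass there either, with an estimate of −1.93 (adjusted p = 0.0636, limma). It passed in the 4-library fit (adjusted p = 0.000774, limma). Not passing in the 6-library fit thus does not show that a gene was unchanged. Both EHMT2 siRNA libraries lay above the other 4 libraries for MCL1, BID and BAD, as they did for 24.6% of tested genes, and below them for 0 members and 18.0% of genes. Against the 2 control siRNA libraries alone, both were higher for MCL1, BCL2L11, BID and BAD (34.4% of genes) and lower for 0 members (27.3% of genes). BCL2L1, the most abundant member, had a ratio of 0.06 in resistant cells against −0.0041 in parental cells, and its limma estimate was 0.03 (SE 0.18 in the 6-library fit). Rescaling to a common sum made both its ratios positive (0.12 each) and median centring made both negative. BIK had a ratio of −0.22 in resistant cells against 0.05 in parental cells, and the second turned to −0.05 with median centring. BAK1 had a ratio of −0.42 in resistant cells against −0.015 in parental cells, and the second was 0.10 with values rescaled to the same sum. Whether a knockdown ratio differed between the lines was not tested, because each line has 1 library per treatment.

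**Figure D3:**
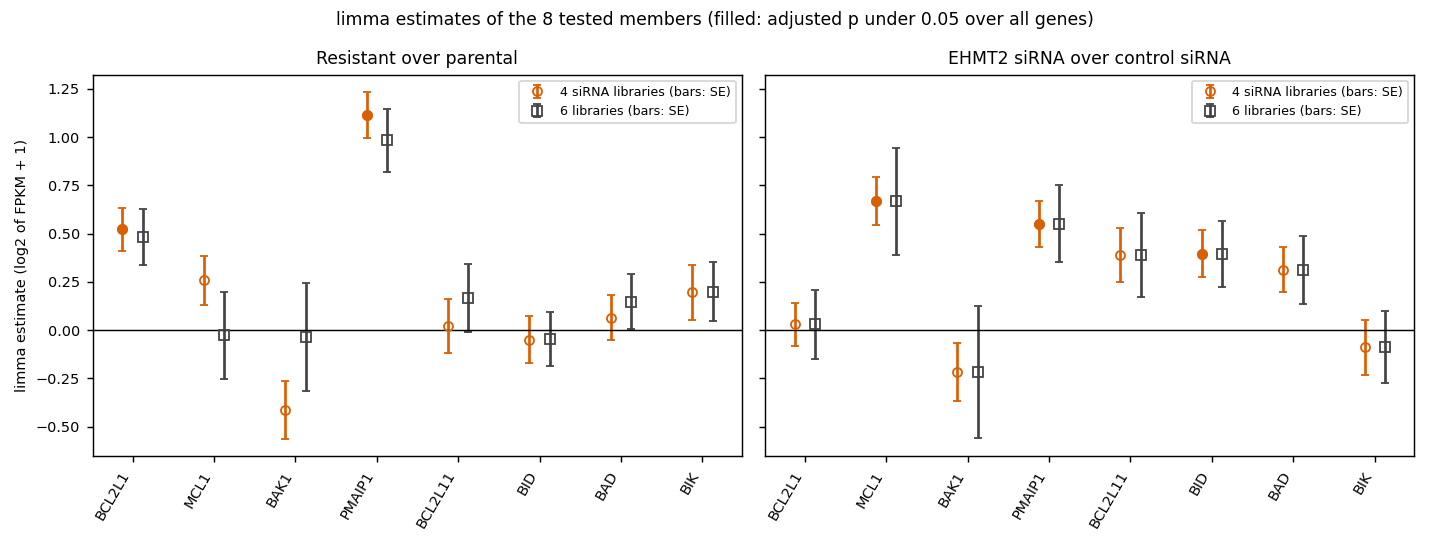
limma estimates with their SE (vertical axis, log2 of FPKM + 1) for the 8 tested members (horizontal axis), from the fit over the 4 siRNA libraries (circles) and over all 6 libraries (squares), with filled symbols for an adjusted p under 0.05. PMAIP1 and BCL2L1 are filled for the line and MCL1, PMAIP1 and BID for EHMT2 siRNA, in the 4-library fit alone.

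Control siRNA libraries were compared next with untransfected ones, in each line. With 1 library per group, an effect of transfection cannot be told apart from other differences between libraries. The control siRNA libraries enter both this comparison and the one before, so their values are given side by side and not as separate support. Control siRNA over untransfected, MCL1 had a ratio of 0.45 in resistant cells and −0.57 in parental cells. BAK1 had ratios of −0.21 in resistant cells and 0.71 in parental cells, and PMAIP1 had 0.16 and −0.36. BCL2L1 was lower with control siRNA in both lines (−0.19 and −0.28), as was BIK (−0.14 and −0.26) and BMF (−0.18 and −0.06), and BID was higher in both (0.12 and 0.05). Of all tested genes 23.9% were higher in both lines and 23.5% lower. No member was 2-fold apart, where 4.31% of genes were at least 2-fold higher and 3.87% lower in resistant cells, and 0.954% and 2.08% in parental cells. At 1.5-fold, 0 members were apart in resistant cells (11.1% of genes higher, 13.2% lower) and BAK1 was higher in parental cells (6.95% of genes higher, 8.21% lower). The 6-library limma fit called 0 members, against 4 genes higher (0.0347%) and 1 lower (0.00868%), and 0 members had an unadjusted p under 0.05. For MCL1 the values in resistant cells were thus lowest untransfected and highest with EHMT2 siRNA, while in parental cells the control siRNA library was the lowest.

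The make-up of the family's message was then compared between libraries. The summed FPKM of the 10 members was 341 with EHMT2 siRNA, 283 with control siRNA and 284 untransfected in resistant cells. In parental cells the sums were 253, 194 and 234 under the same treatments. BH3-only members held 44.9%, 41.8% and 40.6% of that sum in resistant cells and 40.2%, 36.8% and 34.9% in parental cells. The share of PMAIP1 alone had that order in resistant cells, and it was higher in resistant than in parental cells under each treatment. In parental cells its share was highest with EHMT2 siRNA but lower with control siRNA than untransfected. The higher BH3-only share with control siRNA than untransfected there thus came from the other 5 BH3-only members. The other 5 BH3-only members together held 14.9%, 15.0% and 16.7% in resistant cells and 20.0%, 20.6% and 17.4% in parental cells. Their share was thus lower in resistant cells under each treatment, of a sum that PMAIP1 and BCL2L1 made larger there. A lower share is not a lower level. BAD and BIK were higher in resistant cells under each treatment, BMF was lower, and BCL2L11 and BID went both ways. The ratio of PMAIP1 to MCL1, its preferred partner, was 1.48, 1.57 and 1.93 in resistant cells against 0.787, 0.878 and 0.762 in parental cells. PMAIP1 message exceeded MCL1 message in every resistant library and in no parental one. The ratio of BCL2L1 to MCL1 was 1.62, 2.22 and 3.49 in resistant cells and 1.17, 2.12 and 1.73 in parental cells. Sums and ratios of messages say nothing of protein, and MCL1 and PMAIP1 proteins are known to turn over fast.

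**Figure D4:**
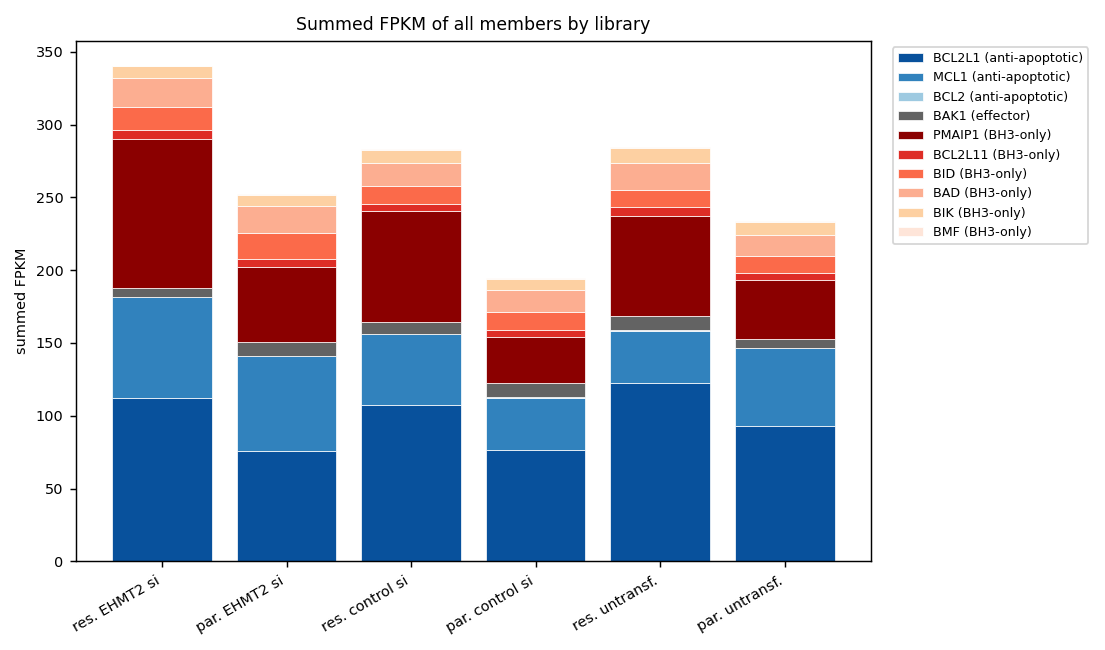
Summed FPKM of the 10 members (vertical axis, from 0) in each of the 6 libraries (horizontal axis), stacked by member, with anti-apoptotic members in blue, BAK1 in grey and BH3-only members in red and orange. PMAIP1 is the widest red block and exceeds MCL1 in the 3 resistant libraries only.

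Because PMAIP1 had the widest span, its promoter is shown. RefSeq's table of promoter windows (build GRCh38.p14, 250 bases before to 50 after a gene's start) held 8 of the 10 members, with MCL1 and BIK not among them. The stretch below is the part of the PMAIP1 window that lies before the first annotated start, chr18:59899746-59899947 on the plus strand. Capitals mark GGGCGG or its reverse complement, a GC box that SP1-type factors bind, and the reverse complement of TGACGT, the core of the element bound by ATF and CREB factors.
PMAIP1 promoter: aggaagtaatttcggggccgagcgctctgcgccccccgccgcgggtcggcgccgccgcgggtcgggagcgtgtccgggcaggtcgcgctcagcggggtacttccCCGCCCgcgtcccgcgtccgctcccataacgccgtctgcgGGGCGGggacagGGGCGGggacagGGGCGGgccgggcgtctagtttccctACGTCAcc
The window held 4 matches to GGGCGG and 1 to TGACGT on either strand, none overlapping another. Of 35116 promoter windows of the same length, 45.0% held GGGCGG and 7.98% held TGACGT. TGANGCAA and CACGTG had no match in it, against 3.22% and 7.26% of windows. A match describes these letters and shows no binding.

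By likeness of profile over the 6 libraries, measured as the root mean square difference of centred log2 values among 9380 genes at 5 FPKM or more in some library, PMAIP1 lay nearest to STARD4, a sterol carrier (0.11), and ACSS2, an acetyl-CoA synthetase (0.14). STARD4 had 15.9, 14.1 and 10.9 FPKM in resistant cells and 7.06, 4.51 and 5.53 in parental cells with EHMT2 siRNA, with control siRNA and untransfected. MCL1 lay nearest to NMD3, an export adaptor of ribosomal subunits (0.03), and TSPAN3, a tetraspanin (0.05). BCL2, the third by range, lay nearest to GTF3C5 and SSNA1, but its own values were at or near 0. These distances are a description over 6 libraries.

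The wider pathway was followed in lists of apoptosis genes, counted in the 4-library limma fit with adjustment over all genes, while 0 of their members passed for either term in the 6-library fit. In that 4-library fit 23.8% of all genes rose and 18.7% fell with EHMT2 siRNA, so these counts describe the lists and set none apart. Their median ratios with EHMT2 siRNA ran from −0.11 (transcription factors) to 0.42 (death receptor pathway) in resistant cells and from 0.03 (MCL1 turnover) to 0.48 (transcription factors) in parental cells. Among 8 tested relatives in the other BCL2 family list, 4 rose with EHMT2 siRNA and 1 fell. BNIP3 and BNIP3L, mitophagy receptors, rose by 1.17 and 1.06, BCL2L13 rose by 0.39 and BCL2L12 fell by 0.67. BAX, the other pore-forming effector, rose by 0.92 and, unlike BAK1, was higher in both lines (49.1 FPKM against 23.1 in resistant and 49.3 against 28.3 in parental cells, EHMT2 siRNA against control siRNA). Untransfected resistant cells, at 45.2 FPKM, were close to the EHMT2 siRNA level of BAX, with a ratio of control siRNA over untransfected of −0.94, while untransfected parental cells had 22.7 FPKM. BBC3, also called PUMA, did not pass, with ratios of −0.45 in resistant cells and −0.20 in parental cells. Of the 13 listed relatives, 3 were at 0 in all 6 libraries.

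Among 9 tested genes of the death receptor pathway 5 rose and 0 fell. These were CFLAR, an inhibitor of CASP8 (1.15), CASP8 itself (0.88), TNFRSF10B (0.80), FAS (0.64) and RIPK1 (0.40). In the inhibitor of apoptosis list BIRC2 (0.46) and BIRC6 (0.53) rose and BIRC5, survivin, fell by 0.74. Of 10 genes of the apoptosome and mitochondrial release, VDAC1 and HTRA2 rose (0.44 each) and 0 fell. In the list of MCL1 turnover FBXW7 and USP9X rose, by 0.52 and 0.72, and BTRC fell by 0.54, USP9X being a deubiquitinase that protects MCL1 and FBXW7 a ubiquitin ligase subunit that marks it. Among transcription factors known to act on BH3-only genes 3 rose, namely ATF3 (1.96), DDIT3 (0.88) and FOXO1 (0.52). In that list 2 fell, E2F1 by 1.05 and TP73 by 0.94. DDIT3 had an SE of 0.69 in the 6-library fit. In parental cells it had 19.2 FPKM with EHMT2 siRNA, 7.25 with control siRNA and 24.6 untransfected. ATF3 had 40.9 FPKM there with EHMT2 siRNA and 26.9 untransfected. Ratios of control siRNA over untransfected were −1.64 (DDIT3) and −1.95 (ATF3) in parental cells, and 1.41 and −0.21 in resistant cells. For the line, 2 of the 8 transcription factors rose in resistant cells, ATF4 (0.71) and DDIT3 (1.99), and 0 fell. Of 8 other BCL2 family genes 2 rose (BCL2L13, BNIP3L) and BCL2L12 fell. Untransfected cells went the other way for ATF4 (ratio −0.61), DDIT3 (−0.65) and BCL2L13 (−0.32), so these rises cover the siRNA libraries only. BIRC3 (0.89) and TNFRSF1A (0.56) rose in resistant cells in their lists, and 0 genes passed in the mitochondrial release and MCL1 turnover lists.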

How the data were processed

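Version 2 of the TruSeq RNA kit was used to make the 6 HCT116 libraries, per the labels' protocols. Listed in the submitters' processing notes, without order, are HISAT2 2.2.1, StringTie 2.1.1, cutadapt 4.9, FastQC 0.12.1 and build GRCh38. The sources used here do not give the annotation or strand setting. The authors deposited FPKM, 1 table of 19957 rows per library. The tables were joined by gene ID, and for a symbol with several rows the row of highest mean was kept (19942 symbols). Ratios are log2 of FPKM + 1, called at 2-fold with 1 FPKM in at least 1 library of the pair. limma 3.58.1 (R 4.3.3) with a mean-variance trend fitted line and treatment to 11521 genes that reached 1 FPKM in 3 or more libraries. Benjamini-Hochberg adjustment was used, with a threshold of 0.05. Only the 6-library fit was run on simulated data, which held no line effect and no interaction, so the 4-library fit was not covered. The series text speaks of independent replicates, but 1 library per group is present. Whether libraries came from separate cultures is not stated, and depth is unknown. The members and lists were chosen with earlier results of these data known. All members are named. Genes of other lists could be named if they passed or were among the 2 highest or 2 lowest by mean EHMT2 siRNA ratio. Not all such genes are named. GENCODE 29 gave coordinates and coding sequences, and RefSeq the promoter. Alternatives were another pseudocount (0.1), filters (none, 5 FPKM), scalings, a 1.5-fold threshold, no trend, the 4 siRNA libraries alone and each library left out. Combinations of the 4-library fit with other settings, and the motifs, were chosen after seeing the data. One list of pathway genes is not reported here.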

Additional observations from a re-analysis of the deposited data

Results flagged for a closer look

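MCL1 and BAK1 had opposite signs between the lines depending on treatment, by at least 1.2-fold on each side. For MCL1 the log2 ratio of resistant over parental cells was −0.60 untransfected and 0.42 with control siRNA. For BAK1 it was 0.72 untransfected and −0.62 with EHMT2 siRNA. These differences were not tested, since each group holds 1 library. Of all tested genes, 14.0% were higher and 12.5% lower in all 3 line pairs, so most genes kept no single sign. The share of genes with opposite signs by at least 1.2-fold on each side was not computed.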

How the results depend on the processing

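No paired analysis was possible because every group has the replicate number 1 and no other. Of 280 single-member ratios under another pseudocount or scaling, 265 kept sign and call, 13 small ratios changed sign and 2 became called at 2-fold, both PMAIP1 in the EHMT2 siRNA line pair. With a pseudocount of 0.1, 5 of the 265, all of BCL2 or BMF, passed 2-fold without being called, as both libraries were under 1 FPKM. The count of members 2-fold apart in that pair was 0 and became 1 with a pseudocount of 0.1 and with median-centred ratios. At 1.5-fold the counts were 3 in the untransfected line pair, 2 in the EHMT2 siRNA line pair, 2 for EHMT2 siRNA in parental cells and 1 for control siRNA in parental cells, against 0 at 2-fold in each. Members called for the line numbered 0 in the 6-library fit, 2 in the 4-library fit and, there, 1 without trend and 2 under each other setting tried. For EHMT2 siRNA the numbers were 0, 3, 2 without trend, 3 with a pseudocount of 0.1 or quantile normalisation and 5 with values rescaled to the same sum. Leaving out libraries in turn gave 0 to 2 for the line and 0 to 3 for EHMT2 siRNA. The values above 0 came without the untransfected parental or the untransfected resistant library, and every fit that kept both gave 0. Those fits repeat the 4-library fit, because the untransfected library that remains is fitted exactly by its own treatment term. Rescaling to the same sum moved the median of all genes to 0.28, against 0.07 as deposited, in the untransfected line pair, to 0.20 against 0.09 for EHMT2 siRNA in parental cells, and to 0.20 against 0.04 for control siRNA in parental cells. No estimate that turned sign was called in any fit, that is, none had an adjusted p under 0.05 (limma). For the line, MCL1 was −0.03 over 6 libraries, 0.26 over the 4 siRNA libraries (also without trend and with a pseudocount of 0.1), 0.18 there with quantile normalisation, 0.25 there with rescaled values and 0.047 rescaled over 6 libraries, and ran from −0.25 to 0.26 with libraries left out. BAK1 was −0.04 and became 0.026 and BID was −0.05 and became 0.022 when rescaled, and BAK1 ran from −0.41 to 0.25 with libraries left out. For EHMT2 siRNA, BCL2L1 was 0.03 and became −0.034 with quantile normalisation over 6 libraries and −0.033 over 4. With libraries left out it ran from −0.026 to 0.084, BAK1 from −0.65 to 0.22 and BIK from −0.19 to 0.016. The cause was not tested.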
